A study of Mus musculus with 2 samples.

Results

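The genes of the voltage-gated sodium and calcium channels were described in forebrain of mouse embryos at embryonic day 12.5. Members were the protein-coding genes of the GENCODE M21 tables whose symbols name a sodium channel alpha or beta subunit (Scn with a number and a or b) or a calcium channel alpha1, alpha2delta, beta or gamma subunit (Cacna, Cacnb or Cacng with a number). The rule found 40 genes, 14 of sodium and 26 of calcium channels, among 22028 protein-coding genes and 55536 gene identifiers in all. PolyA-plus RNA came from B6NCrl embryos of mixed sex with no treatment or genetic change named in the labels, in 2 libraries of 10 ng RNA. Pool 1 held forebrains of 120 embryos and pool 2 forebrains of 68 embryos. The labels give no other group, so no condition was compared, and levels are described with the spread of the pools. Each pool is 1 library, so a difference between pools has no replicate check and no test was run. The reads assigned to genes totalled 33373843 counts for pool 1 against 34406648 counts for pool 2.

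Voltage-gated sodium channels open when the membrane depolarises and carry the rising phase of the action potential. Each is a single large alpha subunit that forms the pore, joined by beta subunits that adjust its gating and also act in cell adhesion. Voltage-gated calcium channels let calcium in on depolarisation, and pair a pore-forming alpha1 subunit with a cytoplasmic beta subunit and an extracellular alpha2delta subunit. The proteins named gamma are mostly auxiliary subunits of AMPA-type glutamate receptors, with gamma-1 the partner of the skeletal muscle calcium channel. Several alpha genes carry a pair of neighbouring exons that code for the same stretch of the channel and are used one at a time, and in sodium channels the upstream exon of the exon 5 pair is known as the neonatal form and the downstream exon as the adult form.

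At a TPM (a level per transcript length, scaled to the same total in each library) of at least 1 in both pools, 27 of the 40 members were detected, or 67.5%, against 58.9% of all protein-coding genes. A further 12 members stayed below 1 TPM in both pools, and Cacng5 passed in pool 1 alone. None had 0 counts in both pools. The detected members were expressed at low to moderate levels, with a median of 4.21 TPM, against 21.9 TPM for all detected protein-coding genes. Summed over members the level came to 269 TPM in pool 1 against 288 TPM in pool 2. Only 8 members reached a mean of 10 TPM. They were the calcium beta subunits Cacnb3 and Cacnb1, the sodium channel genes Scn3a, Scn3b and Scn8a, the alpha2delta genes Cacna2d1 and Cacna2d3, and Cacng4. In a bulk sample, fewer expressing cells and less RNA per cell cannot be told apart.

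**Figure D1:**
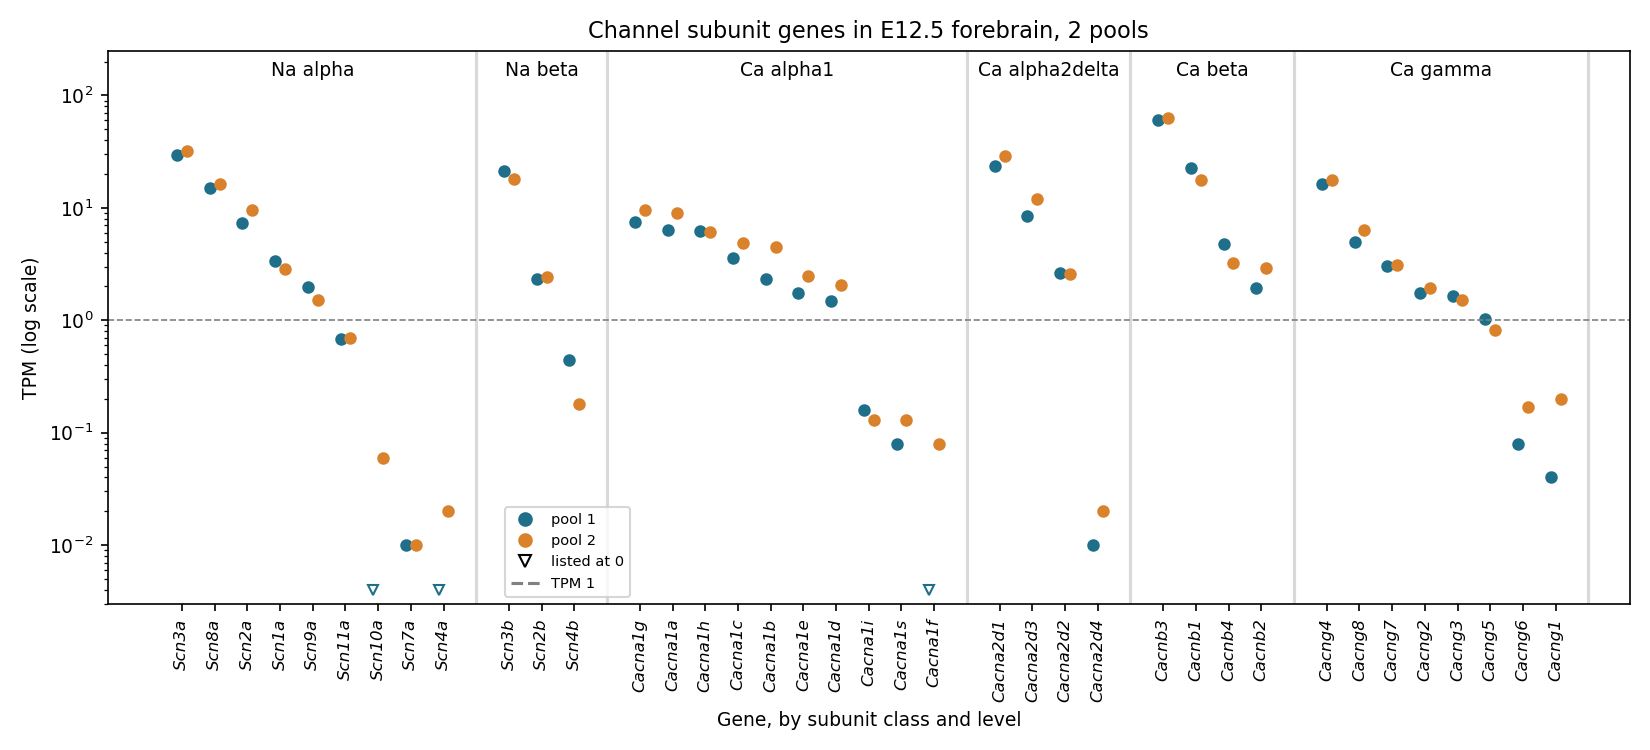
TPM of 38 of the 40 members (y axis, log scale) in pool 1 and pool 2, by subunit class and, within a class, from the highest to the lowest mean. Points are single libraries, open triangles are values listed at 0, and the dashed line marks 1 TPM. Cacnb3, at 60.2 TPM in pool 1 against 62.9 TPM in pool 2, stands above every other member.

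The tissue matched its label by markers. All 6 postmitotic neuron markers, all 5 neural progenitor markers and all 4 forebrain markers were detected. The neuron markers came to a sum of 1360 TPM in pool 1 against 1264 TPM in pool 2. The libraries also held RNA of other cells, with 3 embryonic red cell genes at 5908 TPM in pool 1 against 7990 TPM in pool 2, and 3 mesenchymal genes at 455 TPM in pool 1 against 533 TPM in pool 2. Markers of the ventral forebrain (subpallium, 6 of 6 detected) ran the other way, at 546 TPM in pool 1 against 378 TPM in pool 2. What these differences contribute to the channel values was not tested.

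Sodium channel alpha subunits were led by Scn3a (ENSMUSG00000057182.14, chr2:65457118-65567627, minus strand, GRCm38), which codes for Nav1.3, a channel best known from embryonic and injured neurons. Its level was 29.6 TPM in pool 1 against 31.9 TPM in pool 2, a mean of 30.8 ± 1.61 TPM (SD, n = 2), and rested on 3268 counts in pool 1 and 3368 counts in pool 2. Scn3a held 48.7% of the summed alpha level in pool 1 and 48.8% in pool 2. Scn8a, coding for Nav1.6, the main channel of the mature axon initial segment, read 15.1 TPM in pool 1 against 16.2 TPM in pool 2. Scn2a, coding for Nav1.2, the channel of early axons and excitatory neurons, read 7.36 TPM in pool 1 against 9.64 TPM in pool 2. The ranges of these 3 genes did not overlap, so their order was the same in both pools.

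Other sodium alpha genes were low. Scn1a, the Nav1.1 gene of inhibitory interneurons, read 3.35 TPM in pool 1 against 2.86 TPM in pool 2. Scn9a, the Nav1.7 gene of sensory and sympathetic neurons, read 1.97 TPM in pool 1 against 1.52 TPM in pool 2. Both passed 1 TPM in both pools, but neither did in long coding transcripts alone (defined with the transcript values), where Scn1a read 0.84 TPM in pool 1 against 1.06 TPM in pool 2 and Scn9a 1.35 TPM in pool 1 against 0.96 TPM in pool 2.

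The sodium alpha genes Scn11a, Scn10a, Scn7a and Scn4a stayed below 1 TPM in both pools. All but Scn11a were near the limit of detection. Scn11a, the Nav1.9 gene of pain-sensing neurons, read 0.68 TPM in pool 1 against 0.69 TPM in pool 2. It rested on 83 counts in pool 1 and 87 counts in pool 2. Scn10a, the Nav1.8 gene of the same neurons, had 0 counts in pool 1, which allows up to 0.033 TPM at 3 counts, and 7 counts or 0.06 TPM in pool 2. Scn7a, a sodium-sensing relative that is not opened by voltage, had 2 counts in pool 1 and 1 count in pool 2. Scn4a, the skeletal muscle gene, had 0 counts in pool 1, which allows up to 0.041 TPM, and 3 counts in pool 2. Of the sensory ganglion markers 2 of 6 were detected, and of the skeletal muscle markers 1 of 6. The skeletal muscle markers had a sum of 2.70 TPM in pool 1 against 7.86 TPM in pool 2.

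Among the beta subunits of sodium channels, Scn3b stood apart. Scn3b (chr9:40269217-40291618, plus strand), coding for a subunit that associates with the alpha protein without a disulfide bond, read 21.4 TPM in pool 1 against 18.1 TPM in pool 2. It held 85.1% of the summed beta level in pool 1 and 83.9% in pool 2. Scn2b, which is disulfide-linked to alpha, read 2.32 TPM in pool 1 against 2.43 TPM in pool 2. Scn4b, coding for the other disulfide-linked subunit, read 0.44 TPM in pool 1 against 0.18 TPM in pool 2.

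The 4 calcium channel beta subunit genes, whose proteins bring alpha1 to the membrane, had the highest summed level of any class, at 89.8 TPM in pool 1 against 86.7 TPM in pool 2. Cacnb3 (ENSMUSG00000003352.14, chr15:98630840-98644529, plus strand) read 60.2 TPM in pool 1 against 62.9 TPM in pool 2, a mean of 61.6 ± 1.95 TPM (SD, n = 2). That mean lay above those of 87.0% of protein-coding genes, the highest place of any member. Cacnb1, coding for the beta subunit of the skeletal muscle channel and also made in brain, read 22.9 TPM in pool 1 against 17.6 TPM in pool 2. Cacnb4, mutated in the lethargic mouse, read 4.78 TPM in pool 1 against 3.24 TPM in pool 2. Cacnb2, the main cardiac beta gene, read 1.95 TPM in pool 1 against 2.93 TPM in pool 2, so it was the lowest of the class in both pools. Most of that level lay outside long coding transcripts (defined with the transcript values), in which Cacnb2 read 0.22 TPM in pool 1 against 0.27 TPM in pool 2. Beside Cacnb2, the heart muscle markers had a sum of 5.20 TPM in pool 1 against 5.95 TPM in pool 2, and 3 of 4 were detected, while the cardiac factor Nkx2-5 was at 0.07 TPM in pool 1 against 0.04 TPM in pool 2. The part of heart muscle RNA in the Cacnb2 level was not tested.

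The alpha2delta subunits raise the number of channels at the surface and bind gabapentin in the case of the proteins of Cacna2d1 and Cacna2d2. Cacna2d1 read 23.6 TPM in pool 1 against 28.7 TPM in pool 2, and held 67.9% of the class in pool 1 and 66.3% in pool 2. Cacna2d3 was at 8.52 TPM in pool 1 against 12.0 TPM in pool 2. Cacna2d2, mutated in the ducky mouse, was at 2.62 TPM in pool 1 against 2.56 TPM in pool 2. Cacna2d4, known from retina, had 1 count in pool 1 and 2 counts in pool 2. The eye and photoreceptor markers Crx and Cryaa had 0 counts in both pools.

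No single alpha1 gene led the calcium pores as Scn3a led the sodium pores. The highest, Cacna1g, codes for the low-voltage-activated T-type channel Cav3.1 and read 7.49 TPM in pool 1 against 9.48 TPM in pool 2, or 25.5% of the class in pool 1 and 24.4% in pool 2. Cacna1a, coding for the P/Q-type channel Cav2.1 of transmitter release, read 6.36 TPM in pool 1 against 9.01 TPM in pool 2, a range that overlapped that of Cacna1g. Cacna1h, coding for the T-type channel Cav3.2, read 6.18 TPM in pool 1 against 6.08 TPM in pool 2. These 3 genes were followed by the L-type gene Cacna1c (Cav1.2) at 3.56 TPM in pool 1 against 4.86 TPM in pool 2. The N-type gene Cacna1b (Cav2.2) was at 2.35 TPM in pool 1 against 4.52 TPM in pool 2, from 448 counts in pool 1 and 556 counts in pool 2. Of the pool 2 level 1.36 TPM came from a transcript of 523 bases with 12.7 counts, which had 0 counts in pool 1. In long coding transcripts Cacna1b read 2.23 TPM in pool 1 against 2.55 TPM in pool 2. The lowest detected were the R-type gene Cacna1e (Cav2.3), at 1.75 TPM in pool 1 against 2.49 TPM in pool 2, and the L-type gene Cacna1d (Cav1.3), at 1.5 TPM in pool 1 against 2.08 TPM in pool 2. Cacna1d was below 1 TPM on other scales, with 0.50 TPM in pool 1 against 0.72 TPM in pool 2 in the tables on GENCODE M4, and 0.16 TPM in pool 1 against 0.27 TPM in pool 2 in long coding transcripts. From Cacna1c to Cacna1d each gene's range over the pools overlapped that of the next.

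By channel type, the 3 T-type genes made up 47.0% of the summed alpha1 level in pool 1 and 40.4% in pool 2. The 3 P/Q-, N- and R-type genes made up 35.5% in pool 1 and 41.2% in pool 2, and the 4 L-type genes 17.5% in pool 1 and 18.4% in pool 2. L-type pores were therefore the smallest share in both pools, while the order of the other 2 types differed between pools. In long coding transcripts that order was the same in both pools, with T-type genes at 57.2% in pool 1 and 53.3% in pool 2, and the P/Q-, N- and R-type genes at 29.9% in pool 1 and 31.3% in pool 2. The third T-type gene, Cacna1i (Cav3.3), read only 0.16 TPM in pool 1 against 0.13 TPM in pool 2. The skeletal muscle L-type gene Cacna1s read 0.08 TPM in pool 1 against 0.13 TPM in pool 2. The retinal L-type gene Cacna1f, on chromosome X, had 0 counts in pool 1, which allows up to 0.046 TPM, and 1 count in pool 2. Genes on the opposite strand overlap Cacna1d and Cacna1c, namely Dcp1a at a mean of 24.7 TPM and Dcp1b at 10.7 TPM. Whether counting used strand is not given in the sources used here, so the levels of Cacna1d and Cacna1c are uncertain.

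Of the gamma genes, Cacng4 led with 16.4 TPM in pool 1 against 17.9 TPM in pool 2, which was 56.6% of the class in pool 1 and 55.7% in pool 2. Its protein, like those of Cacng2, Cacng3 and Cacng8, is an AMPA receptor partner. Cacng8 read 4.95 TPM in pool 1 against 6.42 TPM in pool 2, and Cacng7, coding for an auxiliary subunit of a related kind, read 3.06 TPM in pool 1 against 3.12 TPM in pool 2. Cacng2 (stargazin), the best known of them in the adult cerebellum and mutated in the stargazer mouse, read 1.74 TPM in pool 1 against 1.95 TPM in pool 2, far below Cacng4. Cacng3 was at 1.65 TPM in pool 1 against 1.53 TPM in pool 2. Cacng5 was at 1.02 TPM in pool 1 against 0.82 TPM in pool 2. Cacng1, the skeletal muscle gamma gene, and its relative Cacng6 were close to 0, with Cacng1 at 1 count in pool 1 and 5 counts in pool 2, and Cacng6 at 3 counts in pool 1 and 7 counts in pool 2. All 4 AMPA receptor genes were detected, led by Gria2 at 37.5 TPM in pool 1 against 36.6 TPM in pool 2.

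Some neighbouring members in the genome differed widely in level and others did not. On chromosome 11 Cacng4 lies 15.8 kb from Cacng1 and 80.0 kb from Cacng5 with no protein-coding gene between, and these had mean levels of 17.1 TPM, 0.12 TPM and 0.92 TPM. On chromosome 2 Scn3a and Scn2a lie 53.1 kb apart at mean levels of 30.8 TPM and 8.50 TPM. In a second group on that chromosome Scn1a averaged 3.11 TPM, Scn9a 1.75 TPM and Scn7a 0.01 TPM. On chromosome 7 Cacng7 and Cacng8 were closer, at 3.09 TPM and 5.69 TPM, while Cacng6 beside them was at 0.13 TPM. On chromosome 9 Scn10a averaged 0.03 TPM and Scn11a 0.69 TPM.

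The transcript tables showed how much of a gene's TPM lay in long coding transcripts. A transcript was called long coding where its annotated type was protein coding and its length at least 50% of the longest protein-coding transcript of its gene. The rule was chosen after the values were seen. Over the 287 transcripts of the members, long coding ones held 69.2% of the TPM in pool 1 and 65.2% in pool 2. Transcripts with a retained intron held 11.9% in pool 1 and 13.8% in pool 2, against 7.77% in pool 1 and 8.17% in pool 2 over all protein-coding genes. By counts the shares lay closer, with 5.90% in pool 1 and 6.88% in pool 2 for the members, against 5.07% in pool 1 and 5.50% in pool 2 over all protein-coding genes. Among the 13 members with a mean of at least 5 TPM, the leading transcript was coding in 11 and long coding in 9. A short transcript reaches a high TPM from few reads, so level and read share can part.

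Scn3a is an example. Scn3a-202, of 8550 bases, held 47.9% of the gene's TPM in pool 1 and 43.5% in pool 2, and 78.0% of its counts in pool 1 and 77.1% in pool 2. Scn3a-203, a coding fragment of 365 bases, held 40.0% of the TPM in pool 1 and 45.9% in pool 2. It did so from 67.0 counts in pool 1 and 86.2 counts in pool 2, which were 2.05% of the gene's counts in pool 1 and 2.56% in pool 2. In long coding transcripts Scn3a came to 17.3 TPM in pool 1 against 17.1 TPM in pool 2. It remained the leading sodium alpha gene on that scale, with 61.3% of the class in pool 1 and 59.4% in pool 2.

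Scn8a and Scn2a lost more. The leading Scn8a transcript, Scn8a-207 of 587 bases, held 40.5% of its TPM in pool 1 and 32.7% in pool 2, while the longest expressed one, Scn8a-204 of 11436 bases, held 16.0% in pool 1 and 14.7% in pool 2. In long coding transcripts Scn8a came to 2.42 TPM in pool 1 against 3.21 TPM in pool 2. The leading Scn2a transcript, Scn2a-209, is a retained-intron model and held 44.2% of its TPM in pool 1 and 45.5% in pool 2. Scn2a in long coding transcripts came to 2.82 TPM in pool 1 against 3.23 TPM in pool 2. The ranges of Scn8a and Scn2a thus overlapped on this scale.

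Calcium channel genes differed in the same respect. Cacng4-201 held 100% of its gene's TPM in pool 1 and 97.5% in pool 2, and Cacnb1-201 held 81.0% in pool 1 and 78.8% in pool 2. Cacnb3-202 held 69.3% in pool 1 and 74.9% in pool 2. These auxiliary subunits therefore kept most of their level, with Cacnb3 at 50.8 TPM in pool 1 against 51.8 TPM in pool 2 in long coding transcripts. Cacna1a kept 1.20 TPM in pool 1 against 1.5 TPM in pool 2, since most of its TPM lay in retained-intron and processed models. Cacng8-203, of 535 bases, held 67.7% of its gene's TPM in pool 1 and 82.4% in pool 2, from 31 counts in pool 1 and 51 counts in pool 2. Cacna1h-205, of 8230 bases, held 76.2% in pool 1 and 66.9% in pool 2. In long coding transcripts Cacna1h read 4.71 TPM in pool 1 against 4.07 TPM in pool 2 and Cacna1g 3.87 TPM in pool 1 against 4.72 TPM in pool 2, so their ranges overlapped.

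**Figure D2:**
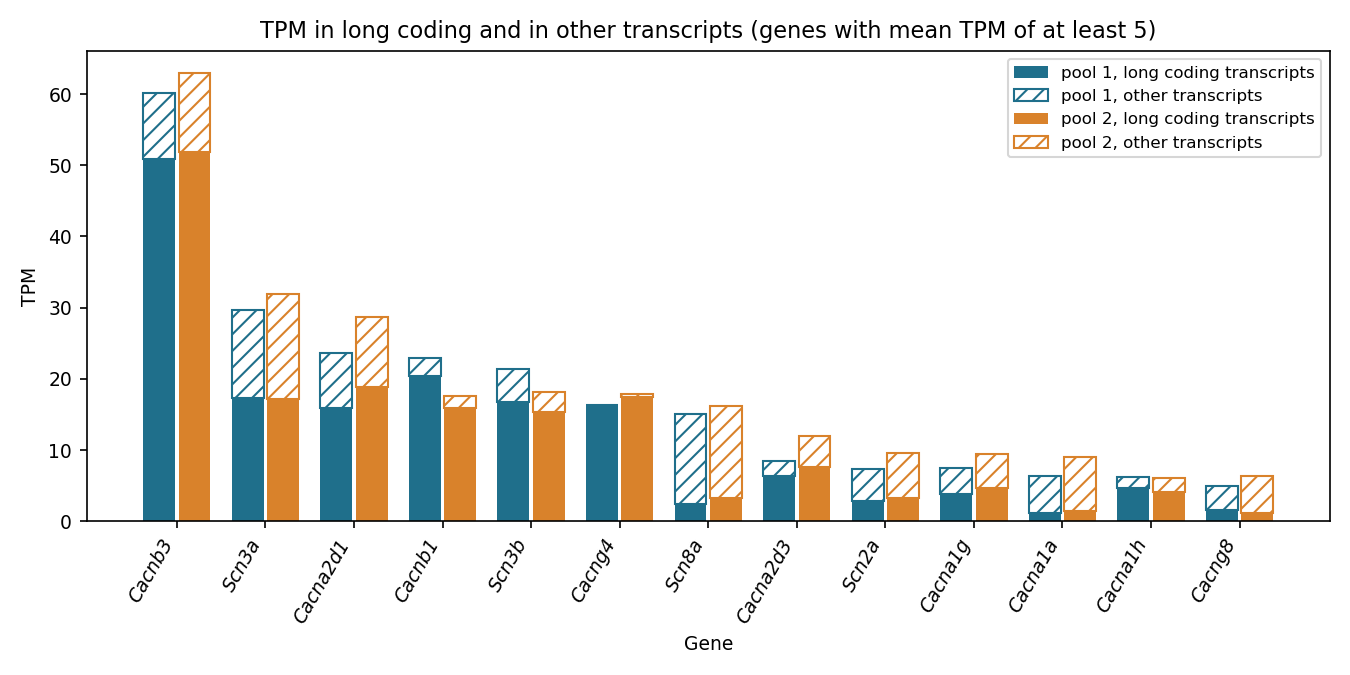
TPM (y axis) of the 13 members with a mean of at least 5 TPM, as 1 bar per pool with pool 1 on the left, split into long coding transcripts (filled) and all other transcripts (hatched). Cacnb3 and Cacng4 lie mostly in long coding transcripts, while Scn8a keeps 2.42 TPM in pool 1 against 3.21 TPM in pool 2.

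The exon 5 pair separates the neonatal from the adult form of sodium channels, and was followed in 4 genes, Scn2a, Scn3a, Scn8a and Scn9a. It codes for part of the voltage sensor region of the first repeat, and both exons have 92 bases. The exons of a pair differed at 20 bases in Scn2a, 21 in Scn3a, 19 in Scn8a and 22 in Scn9a. Between genes the same exon can be closer than the pair within a gene. The downstream exons of Scn2a and Scn3a were 100% identical and their upstream exons 96.7% identical, so reads that lie wholly inside the downstream exon cannot be assigned to 1 of these genes from the exon alone.

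The upstream, neonatal exon held most of the TPM of transcripts that carry either exon in Scn9a and Scn2a. In Scn9a the share was 85.9% in pool 1 and 95.8% in pool 2. In Scn2a it was 79.8% in pool 1 and 60.7% in pool 2, and the mean was 70.3% ± 13.5 percentage points (SD, n = 2). By expected counts the shares in pool 1 were 88.6% for Scn9a and 84.9% for Scn2a. In pool 2 they were 96.7% for Scn9a and 72.7% for Scn2a. In both genes the upstream exon led on both scales and in both pools. The number of reads behind the downstream form was small, with 75.0 counts in pool 1 and 159 counts in pool 2 for Scn2a, and 29.8 counts in pool 1 and 6.40 counts in pool 2 for Scn9a.

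Scn3a and Scn8a depended on the scale. In Scn3a the upstream share was 40.7% of TPM in pool 1 and 46.1% in pool 2, but 2.07% of counts in pool 1 and 2.57% in pool 2. Scn3a-203, the fragment of 365 bases, is the only annotated transcript with its upstream exon, so full-length transcripts with that exon have no model of their own in these tables. Reads from outside the fragment can only go to other models. The Scn3a share of counts was thus low by construction and does not measure use of the upstream exon. In Scn8a the upstream share was 65.8% of TPM in pool 1 and 69.3% in pool 2, but 27.1% of counts in pool 1 and 36.3% in pool 2. Most of the Scn8a upstream TPM came from Scn8a-210, of 2110 bases. That transcript held 2.85 of 4.66 TPM in pool 1 and 3.55 of 5.34 TPM in pool 2. Its last exon begins at the base after the downstream exon ends. Over the 4 genes, the upstream exon held more than 50% in both pools in 3 by TPM and in 2 by counts. Of those by TPM, Scn8a passed 50% only with Scn8a-210 included, and by counts Scn3a was low by construction. Counts are shared among transcripts by the quantifier, so a share reflects reads over whole transcripts and not over the exon alone.

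**Figure D3:**
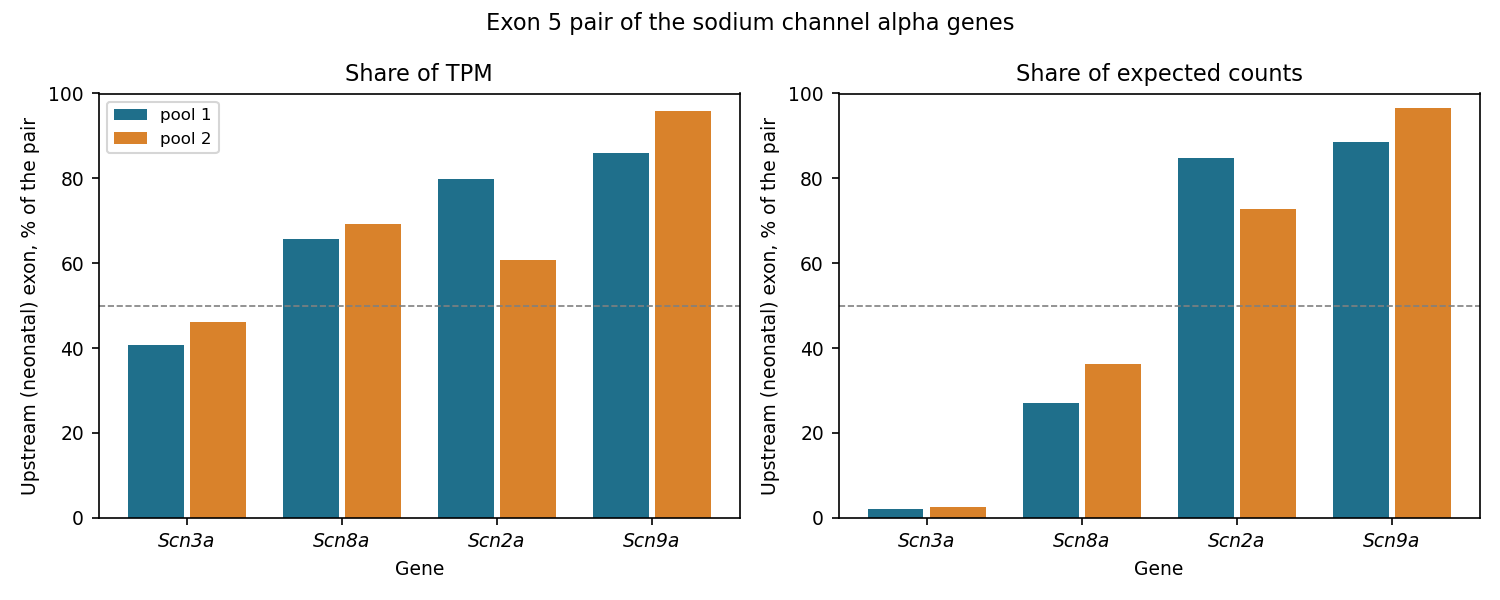
Share of the exon 5 pair held by transcripts with the upstream (neonatal) exon, in percent (y axis), by TPM on the left and by expected counts on the right, for 4 sodium alpha genes with pool 1 left of pool 2. The dashed line marks 50%. Scn2a and Scn9a lie above it on both scales, Scn8a by TPM alone and only with Scn8a-210 included, and Scn3a on neither. The only upstream model of Scn3a is a short fragment, so its share of counts does not measure use of that exon.

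Calcium alpha1 genes carry exon pairs of their own, found here as exons of equal length that take the same place between the same flanking exons. In Cacna1b and Cacna1e a pair of 97 bases, in the part that codes for the start of the cytoplasmic tail, is shown, 5′ to 3′ on the coding strand from the GENCODE M21 transcripts with capitals where the exons of a pair differ, because no counts were assigned to transcripts with the upstream exon. In Cacna1b the upstream exon is the one known from pain-sensing neurons and the downstream exon the one common in brain.
Cacna1b upstream exon, chr2:24626823-24626919, minus strand: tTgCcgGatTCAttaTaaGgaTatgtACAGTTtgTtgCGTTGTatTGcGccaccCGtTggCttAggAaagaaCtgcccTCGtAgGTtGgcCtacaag
Cacna1b downstream exon, chr2:24625238-24625334, minus strand: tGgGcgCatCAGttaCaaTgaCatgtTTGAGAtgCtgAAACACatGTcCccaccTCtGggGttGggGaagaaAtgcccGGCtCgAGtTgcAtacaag
Cacna1e upstream exon, chr1:154417950-154418046, minus strand: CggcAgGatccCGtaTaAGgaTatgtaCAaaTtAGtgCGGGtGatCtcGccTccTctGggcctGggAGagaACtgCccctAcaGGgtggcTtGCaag
Cacna1e downstream exon, chr1:154416061-154416157, minus strand: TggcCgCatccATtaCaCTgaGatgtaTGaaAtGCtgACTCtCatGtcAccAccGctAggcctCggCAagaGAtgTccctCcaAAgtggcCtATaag

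Transcripts with the downstream exon of Cacna1b read 2.23 TPM in pool 1 against 2.55 TPM in pool 2, and the upstream exon 0 TPM in both pools. In Cacna1e the downstream exon read 1.14 TPM in pool 1 against 1.18 TPM in pool 2, and the upstream exon again 0 TPM in both. At 0 counts the short Cacna1b transcript with the upstream exon may still stand at 0.606 TPM in pool 1 or 0.582 TPM in pool 2, and that of Cacna1e at 0.609 TPM in pool 1 or 0.585 TPM in pool 2, so a minor share of the upstream exon could not have been detected at this depth. The posterior mean TPM of these short transcripts was above 0 although they had no counts, and it lay below the levels just given. By that score the upstream share was 8.40% in pool 1 and 7.75% in pool 2 for Cacna1b. For Cacna1e it was 16.3% in pool 1 and 14.0% in pool 2. Such shares rest on no assigned reads, so they do not measure use of the upstream exon, which had 0 counts in both genes. Cacna1a ran the other way, with its upstream exon of the same pair at 100% of TPM in pool 1 and 90.4% in pool 2. In each of these 3 genes the low exon is annotated only in a short transcript, of 332 bases in Cacna1b, 331 bases in Cacna1e and 549 bases in Cacna1a. A full-length transcript with that exon thus has no model of its own in the tables. In Cacna1c both exons of each of its 3 pairs lie in long models. Most of its counts were in 2 of these, Cacna1c-207 of 13162 bases and Cacna1c-216 of 7338 bases. They carry opposite exons in each pair. The shares of the 3 pairs thus largely repeat 1 split between these transcripts. Reads far from the exons can set that split, so use of both exons cannot be told from it. In the pair of 104 bases the upstream share of TPM was 37.6% in pool 1 and 37.9% in pool 2, in the pair of 60 bases 61.9% in pool 1 and 60.5% in pool 2, and in the pair of 84 bases 38.8% in pool 1 and 39.7% in pool 2. By counts the pair of 104 bases stood at 52.2% in pool 1 and 52.4% in pool 2, the pair of 60 bases at 47.3% in pool 1 and 46.1% in pool 2, and the pair of 84 bases at 53.2% in pool 1 and 53.9% in pool 2. The pools thus differed by little. On the scale of counts, transcripts with 1 exon of a Cacna1c pair were not far above those with the other.

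Levels in the pools were compared as log2 ratios of counts scaled by TMM, a normalisation on the bulk of genes, with pool 1 over pool 2. A total of 32 members had a mean count of at least 10 and entered, and the other 8 did not. The median ratio of these members was -0.05, against -0.0026 over all 19063 genes and 0.01 over protein-coding genes. Only Scn4b was past 1.5-fold, higher in pool 1, and none was past it higher in pool 2. Over all genes 3.26% were past 1.5-fold higher in pool 1 and 7.96% higher in pool 2, and over protein-coding genes 2.39% were past it higher in pool 1 and 4.40% higher in pool 2. Members higher in pool 2 numbered 18 of 32, against 50.6% of all genes and 46.6% of protein-coding genes.

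Scn4b had 46 counts in pool 1 and 19 counts in pool 2, a log2 ratio of 1.31 with an exact binomial 95% interval of 0.55 to 2.20. Its protein is known from striatal neurons, among others. The subpallium markers moved with it, at 546 TPM in pool 1 against 378 TPM in pool 2, and their part in the Scn4b value was not tested. Such intervals hold for counting error alone, because amplified copies were not marked by molecular identifiers. They excluded 0 for 15 of 32 members, against 33% of all genes and 36% of protein-coding genes. Of these members 6 lay above 0, against 17.8% of all genes and 21.3% of protein-coding genes. The other 9 lay below 0, against 15.2% of all genes and 14.7% of protein-coding genes.

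The calcium alpha1 genes were mostly higher in pool 2, in 6 of 8 cases with a class median of -0.26. Cacna1a had 296 counts in pool 1 and 414 counts in pool 2, a ratio of -0.41 (interval -0.63 to -0.19). Cacna1d was at -0.45 and Cacna1c at -0.31, while Cacna1h was at 0.19. Beside these values, the 4 smooth muscle and pericyte markers, of which 3 were detected, had a sum of 34.7 TPM in pool 1 against 53.0 TPM in pool 2 and a median ratio of -0.52. The 4 did not move alike. Acta2 was at -0.88 and Myh11, below 1 TPM in both pools, at -1.40. Pdgfrb was at -0.16, and Rgs5 at 0.10 was higher in pool 1. The part of such cells in the values of Cacna1c and the other alpha1 genes was not tested. Among the beta genes Cacnb1 was higher in pool 1, with a ratio of 0.40 (interval 0.29 to 0.52), and Cacnb4 at 0.31. The largest members by genomic span had lower ratios. Those over 300 kb (6 members) had a median of -0.27, against -0.02 for the 529 protein-coding genes of that span, and those of 100 to 300 kb (11 members) had -0.12, against 0.02 for protein-coding genes. The members over 300 kb include Cacna1c, Cacna1d, Cacna1e, Cacna2d1 and Cacna2d3, so span and subunit class cannot be told apart here. No class median passed 1.5-fold.

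**Figure D4:**
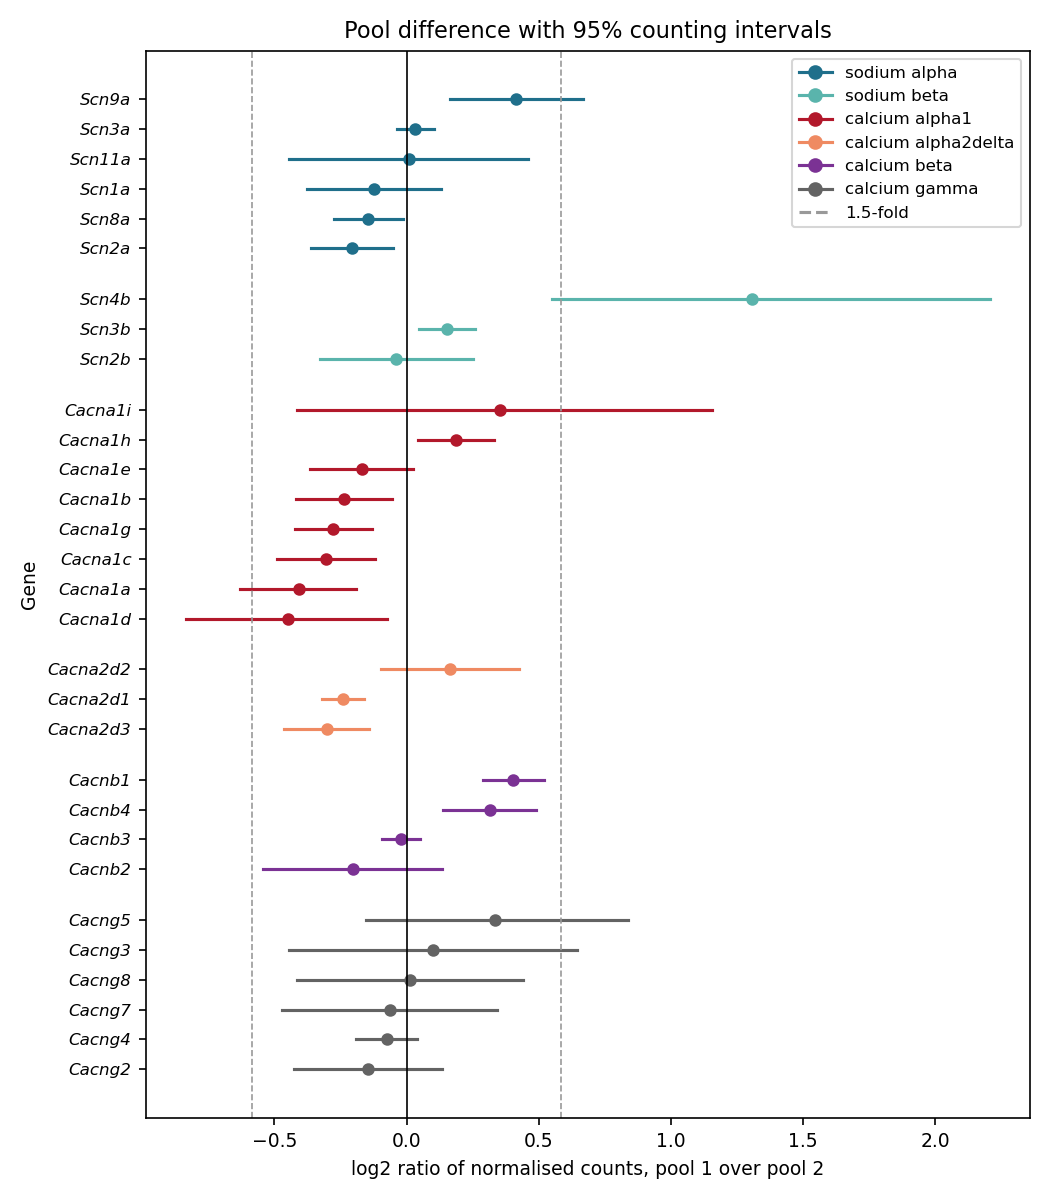
Log2 ratio of TMM-normalised counts, pool 1 over pool 2 (x axis), for 30 of the 32 members with a mean count of at least 10, by class. Points are the ratios, bars are exact binomial 95% intervals that cover counting error only, and dashed lines mark 1.5-fold. Scn4b, at 1.31, is the only point past a dashed line.

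Genes that work with these channels were mostly expressed, 39 of 51 over 10 lists by role. All 4 intracellular fibroblast growth factor homologues, which bind the sodium channel tail, were detected, led by Fgf13 at 49.6 TPM in pool 1 against 43.0 TPM in pool 2 and Fgf14 at 10.3 TPM in pool 1 against 10.2 TPM in pool 2. The lowest, Fgf11, was at 2.06 TPM in pool 1 against 2.51 TPM in pool 2. Of the axon initial segment genes 4 of 5 were detected, with Ank2 at 92.1 TPM in pool 1 against 94.6 TPM in pool 2 and Nrcam at 72.0 TPM in pool 1 against 70.6 TPM in pool 2. The exception was Sptbn4, the spectrin that anchors sodium channels at mature segments, at 0.99 TPM in pool 1 against 0.37 TPM in pool 2. Its counts were close, at 53 in pool 1 and 57 in pool 2. The sodium leak complex had 3 of 5 genes detected, with Nalcn, its pore, at 4.68 TPM in pool 1 against 4.84 TPM in pool 2 and Unc80 lowest at 0.81 TPM in pool 1 against 0.55 TPM in pool 2.

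On the calcium side, 6 of 9 channel regulators were detected. Cachd1, an alpha2delta-like protein, read 22.5 TPM in pool 1 against 31.0 TPM in pool 2, close to Cacna2d1. Rem2, a small GTPase that inhibits calcium channels through the beta subunit, read 23.3 TPM in pool 1 against 20.5 TPM in pool 2, while Rem1 read 0.30 TPM in pool 1 against 0.20 TPM in pool 2. Of the release site tethers, Rims2 read 17.5 TPM in pool 1 against 19.0 TPM in pool 2 and Rimbp2 only 0.78 TPM in pool 1 against 0.99 TPM in pool 2.

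Routes of calcium other than the voltage-gated pores were also present. Store-operated entry had 5 of 5 genes detected, with Stim2, a sensor of store filling, at 17.0 TPM in pool 1 against 17.7 TPM in pool 2 and Orai3 lowest at 4.43 TPM in pool 1 against 4.67 TPM in pool 2. Internal store channels had 4 of 6, led by the IP3 receptor gene Itpr1 at 8.24 TPM in pool 1 against 7.97 TPM in pool 2, with Ryr2 lowest at 0.46 TPM in pool 1 against 0.29 TPM in pool 2. Of the calcium pumps 4 of 7 were detected, led by Atp2b1 of the plasma membrane at 75.0 TPM in pool 1 against 73.3 TPM in pool 2. Of the 50 partner genes with a ratio, none was past 1.5-fold higher in pool 1. Higher in pool 2 and past 1.5-fold were 4, against 7.96% of all genes and 4.40% of protein-coding genes. The 4 were Stac3, Rrad, Itpr2 and Atp2a1, named after their values were seen.

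Promoter sequence was compared with level through the number of CG dinucleotides in windows of 300 bases around transcript starts of RefSeq, mostly upstream of them (GRCm38.p6), which need not be the outer end of the gene. A window was given for 30 of the 40 members, and where a gene had several the one with the most CG was used. At least 20 CG were present in 12 of 20 detected members (60%), against 60.5% of detected protein-coding genes. Among members not detected 2 of 10 reached that number, against 8.75% of protein-coding genes not detected. A pair is shown because it has the highest detected member beside a muscle gene that was close to 0, with each CG in capitals. Both windows lie inside the GENCODE gene and not at its outer end.
Cacnb3, chr15:98634517-98634816, plus strand: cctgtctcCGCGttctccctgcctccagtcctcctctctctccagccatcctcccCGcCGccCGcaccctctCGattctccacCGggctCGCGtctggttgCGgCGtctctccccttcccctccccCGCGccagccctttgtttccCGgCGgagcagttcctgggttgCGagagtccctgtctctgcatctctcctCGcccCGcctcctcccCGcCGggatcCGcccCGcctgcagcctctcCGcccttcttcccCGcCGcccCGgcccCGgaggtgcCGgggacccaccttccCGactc
Scn4a, chr11:106349341-106349640, minus strand: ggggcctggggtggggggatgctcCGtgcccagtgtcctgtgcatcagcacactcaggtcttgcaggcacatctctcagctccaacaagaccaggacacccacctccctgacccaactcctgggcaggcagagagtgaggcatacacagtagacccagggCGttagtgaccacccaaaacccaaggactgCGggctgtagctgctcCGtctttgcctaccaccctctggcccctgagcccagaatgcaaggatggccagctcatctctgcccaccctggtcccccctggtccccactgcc
The window of Cacnb3 held 29 CG and that of Scn4a 4 CG. The exceptions went both ways. Scn4b and Cacna1i, at 0.31 and 0.15 TPM, had 26 and 23 CG, while the detected genes Cacng8 and Scn2b had 2 CG each. The repressor REST is known to act on sodium channel genes such as Scn2a, so the left and right parts of its element were searched on both strands as TTCAGCACC and GGACAGCGC. Neither was in a member's window, against 0.371% and 0.405% of 32851 windows of the table, which says only that these letters are not there.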

How the data were processed

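PolyA-plus RNA of 2 forebrain pools was measured, with cDNA primed by oligo-dT, amplified at full length by PCR, fragmented by tagmentation and given ERCC spike-ins, per the labels' protocols. The authors deposited gene and transcript tables on mm10 with GENCODE M21 (used as the main tables) and M4 (used as an alternative). The expected counts the authors deposited are raw estimates of reads for each gene and transcript. The deposited TPM values are levels per effective length scaled to a fixed total per library. The deposited FPKM values are scaled by length and by assigned reads, per the file headers. A score column, the posterior mean TPM, was also deposited. Column names look like those of RSEM, and the aligner, quantifier, versions and use of strand were not given in the sources used here.

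The members, lists and tests were chosen with earlier results of these data known. Any member may be named, but the values of 2 members, 1 partner gene and the sequence of the sodium channel exon pair are not reported here, and these genes stay in the counts and sums over members and lists, but not in those on the exon pair. Of each partner list the 2 highest and the lowest by mean TPM may be named. Fam155b was found as Tmem28 through its RefSeq synonym. Numbered rows without a gene were left out of every total, with 5.74e-05% of counts in pool 1 against 9.00e-05% in pool 2. Expected counts were rounded for edgeR 4.0.16 (TMM, mean count of at least 10, prior count 1), run in R 4.3.3 with DESeq2 1.42.0 for size factors as an alternative, and the ratios were tested on simulated data. Floors are the TPM of 3 counts, and floors and intervals cover counting error only. The libraries, called biological replicates in the labels, are pools of embryos, and their spread may be technical in part. Python 3.11.15, numpy 2.4.6, pandas 2.3.3, scipy 1.17.1 and matplotlib 3.10.9 did the rest. Alternatives were the annotation, the detection level, FPKM, posterior mean TPM, the scaling, the prior count, the filter, leaving out each pool and, added after seeing the data, long coding transcripts and the exon pairs.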

Additional observations from a re-analysis of the deposited data

How the results depend on the processing

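No paired analysis was possible because the libraries form a single group. Detected members numbered 21 to 30 over the alternatives, 26 in the M4 tables, 24 by FPKM, 22 in long coding transcripts, where Scn1a, Scn9a, Cacna1d, Cacnb2 and Cacng3 fell below the level, and 27 to 28 with either pool left out. Detected partner genes stayed within 1.5 times of 39. The median member level of 2.52 TPM was 2.92 by posterior mean TPM, 1.36 in long coding transcripts and 2.33 to 2.53 with a pool left out.

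The M4 tables gave summed levels of 52.8 TPM for sodium alpha, 28.4 for alpha2delta, 84.5 for calcium beta and 26.6 for gamma genes. Their shares were 61.2% for Scn3a, 26.2% for Cacna1g, 62.7% for Cacna2d1 and 67.8% for Cacng4. Posterior mean TPM gave shares of 46.2% for Scn3a, 22.5% for Cacna1g and 64.0% for Cacna2d1. Long coding transcripts gave summed levels of 28.5 TPM for sodium alpha, 19.4 for sodium beta, 16.0 for alpha1, 26.3 for alpha2delta, 72.9 for calcium beta and 24.0 for gamma genes, with shares of 60.3% for Scn3a, 82.6% for Scn3b, 26.8% for Cacna1g and 70.5% for Cacng4. Of 27 detected members, Cacng8, Cacna1d, Scn2a and Scn8a had M21 levels over 1.5 times the M4 level, at 3.96, 2.93, 1.98 and 1.92 times. The cause was not tested.

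Spike-in totals moved the median ratio of all genes to -0.17 and that of the members to -0.21, a difference of -0.05 as with TMM, and changed the sign of 6 of 32 member ratios. Without the filter on counts the members' median was -0.13. Members past 1.5-fold higher in pool 1 were then 2, and 0 on log2(TPM + 1). Those higher in pool 2 were 1 with spike-in totals, 6 without the filter, which adds genes of few counts, and 1 on log2(TPM + 1). With 1 group of 2 pools, depth limits statements on genes near their floor, where 3 counts or fewer decide a value. The floor depends on length, and in pool 1 was 0.015 TPM for Cacna1i but 0.161 TPM for Cacng8.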

Other observations

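Transcripts annotated as targets of nonsense-mediated decay, which removes messages with an early stop, were a small part of the channel genes. They held 0.123% of the members' TPM in pool 1 and 0.26% in pool 2, against 3.33% in pool 1 and 3.34% in pool 2 over all protein-coding genes. Scn1a-208, of 3562 bases, had 0 counts in pool 1 and 7.75 in pool 2. Cacna1b-207 read 0.13 TPM in pool 1 against 0.34 TPM in pool 2, and Cacna1d-208 read 0.05 TPM in pool 1 against 0 TPM in pool 2. The share depends on which transcripts the annotation lists for these genes, and its source was not tested.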
